A study of Aspergillus niger with 9 samples.

Results

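The genes described here are 3 genes of Aspergillus niger that encode enzymes for growth on carbon sources broken down to acetyl-CoA: acuE for malate synthase, icl1 for isocitrate lyase and acuF for phosphoenolpyruvate carboxykinase. They were taken by their gene identifiers (ATCC64974_31190, ATCC64974_15880 and ATCC64974_88970) from a deposited table of 11187 genes, with earlier results of these data known, and all 3 were among the 9568 genes that passed the filter on low counts. RNA was sequenced from vegetative mycelium of 3 strains of this filamentous fungus in liquid shaken cultures, with 3 libraries per strain. The strains were MA234.1, whose genotype the labels do not spell out, and the deletion strains ΔaslA and ΔaslB, both labelled as made in the MA234.1 background. The series concerns transcription factors whose expression depends on FlbA, a signalling protein of this fungus. The protocol text names a culture of 16 h on 25 mM glucose with yeast extract and casamino acids and a culture of 4 h on 25 mM xylose, and the labels do not say which of them a library came from. The labels call the libraries biological triplicates and do not say whether a deletion is represented by more than 1 clone.

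Isocitrate lyase splits isocitrate, an intermediate of the citric acid cycle, into succinate and glyoxylate, and malate synthase joins the glyoxylate to acetyl-CoA to give malate. This glyoxylate cycle skips the decarboxylating steps of the citric acid cycle, which lets a fungus build sugars from acetate or fatty acids. Phosphoenolpyruvate carboxykinase turns oxaloacetate into phosphoenolpyruvate, the entry step of gluconeogenesis, and in Aspergillus nidulans mutants in such genes were found by their failure to grow on acetate, hence the name acu. In aspergilli the 3 genes are known to be induced by acetate or fatty acids and held low by glucose.

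The gene models stand on separate contigs of the deposited annotation, and its genome build is not given in the sources used here. acuE lies on contig 4 from 1406520 to 1408320 on the minus strand, icl1 on contig 3 from 1414835 to 1416685 on the plus strand, and acuF on contig 16 from 687703 to 689895 on the minus strand. The deposited protein matches are the glyoxysomal malate synthase of A. nidulans for acuE, the isocitrate lyase of Aspergillus fumigatus for icl1 and the ATP-dependent phosphoenolpyruvate carboxykinase of A. nidulans for acuF. No other gene in the table carried the malate synthase or phosphoenolpyruvate carboxykinase protein family, while the isocitrate lyase family had 6 further members, described after the first comparison. The nearest annotated gene lay 799 bases from icl1, 850 bases from acuE and 4608 bases from acuF, so no annotated gene overlaps them.

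Total counts ran from 11321882 to 19110786 per library. Across genes, log2 CPM (counts scaled to library size) correlated at Pearson 0.984 to 0.991 within MA234.1 and 0.971 to 0.991 within ΔaslA, over 9568 genes that are not independent replicates. The library labelled ΔaslB replicate 2 stood apart from the other ΔaslB libraries, at 0.831 and 0.799 with replicates 1 and 3 and at 0.970 to 0.978 with the MA234.1 libraries. Replicates 1 and 3 correlated at 0.943 with each other. Replicate 3 correlated more closely with the ΔaslA libraries, at 0.967 to 0.984, and replicate 1 with them at 0.922 to 0.941. Results on ΔaslB are given with and without replicate 2, and those without it rest on replicates 1 and 3, which also differ. The genes aslA and aslB were not matched by name in the table, so the deletions were not checked here. A list of 11 markers of growing hyphae (gpdA, actin, tubulins, chitin synthases) summed to between 10448 and 10724 CPM in MA234.1, 9317 and 12478 in ΔaslA and 8413 and 11646 in ΔaslB, with none at 0 in any group mean, and 5 were called higher and 2 lower in ΔaslA. The glycolysis gene gpdA made up most of these sums, and the 10 other markers summed to 3602 to 3714 CPM in MA234.1, 4960 to 5873 in ΔaslA and 3612 to 5868 in ΔaslB. A list of 16 markers of conidiophores and conidia held several separate genes matched to wA, a spore pigment polyketide synthase. The list summed to 146 to 160 CPM in MA234.1, 92.6 to 101 in ΔaslA and 72.0 to 136 in ΔaslB. It had 1 marker at 0 in ΔaslA and 1 in ΔaslB, and some were too low to test. In ΔaslA 1 was called higher and 5 lower, where 23.5% of all genes tested were called higher and 24.9% lower. The marker called higher was abaA, from 1.43 ± 0.595 to 19.0 ± 2.44 CPM, named after its values were seen. Those called lower, also named afterwards, were brlA (ATCC64974_72370), rodA (ATCC64974_45620), con-10 (ATCC64974_33710) and the wA matches ATCC64974_82540 and ATCC64974_8540. The part of these markers in the results below was not tested, and in bulk mycelium fewer cells that use a gene and less of its RNA per cell cannot be told apart.

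In MA234.1 the 3 genes were among the most abundant transcripts of the mycelium. acuE, the malate synthase gene, stood at 7585, 7236 and 7008 CPM in replicates 1 to 3. icl1, the isocitrate lyase gene, stood at 7662, 7178 and 7098 CPM, and acuF, the carboxykinase gene, at 10102, 9772 and 9718 CPM. The 3 libraries lay close together for each gene, with coefficients of variation of 3.99%, 4.17% and 2.11%. Together the 3 genes took 2.40% ± 0.0430 (SD, n = 3) of all counts.

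Levels of different genes were compared per kilobase of gene span, since longer genes collect more reads. On that scale acuF was highest, at 4498 ± 94.8 CPM per kb (SD, n = 3), and was above the other 2 genes in every MA234.1 library. acuE followed at 4040 ± 161 and icl1 at 3951 ± 165 CPM per kb. Within each MA234.1 library acuE was slightly above icl1 per kb, at a ratio of 1.01 to 1.04. That order depended on the scale. In CPM icl1 was above acuE in replicates 1 and 3, and in the authors' deposited FPKM values it was above too, at 5566 against 5500. Among all 11187 genes ranked per kb, acuF held place 7 in each MA234.1 library, acuE places 10 or 11 and icl1 places 11 or 12. In the authors' deposited table of FPKM values, acuF, icl1 and acuE held places 6, 11 and 12 in MA234.1.

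The first comparison asked what deletion of aslA does to this transcriptome. All 3 genes fell in ΔaslA, the glyoxylate cycle genes by far more than the gluconeogenic one. acuE fell 212-fold, icl1 84.6-fold and acuF 14.6-fold against MA234.1. From places near the top of the ranking, acuE moved to places 4409 to 4707 per kb and icl1 to places 2488 to 2797, while acuF stayed within the upper ranks at places 412 to 507.

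acuE stood at 30.8, 38.2 and 33.7 CPM in ΔaslA replicates 1 to 3, on 417, 726 and 433 counts. Every one of these values was below the lowest MA234.1 library by more than 100 times. The fitted log2 fold change was -7.73 (SE 1.98; edgeR adjusted p = 0.0138), the fall ranked 61 of 9568 genes.

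icl1 stood at 87.4, 83.2 and 88.8 CPM in the same libraries, on 1182, 1579 and 1142 counts. The ΔaslA libraries lay within 1 narrow band, with a coefficient of variation of 3.36%, and far from MA234.1. The log2 fold change was -6.40 (SE 1.70; edgeR adjusted p = 0.0154), the fall ranked 159.

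acuF stood at 682, 627 and 724 CPM, on 9225, 11897 and 9310 counts. It remained a well expressed gene in ΔaslA, and again the groups did not overlap. The log2 fold change was -3.86 (SE 1.03; edgeR adjusted p = 0.0156), the fall ranked 550. Together the 3 genes took 0.0780% ± 0.00386 (SD, n = 3) of all counts in ΔaslA.

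Thus 3 of 3 genes were called lower in this comparison, in which edgeR called 24.9% of all genes tested lower and 23.5% higher. All 3 also lay below MA234.1 in every library, as did 37.9% of all genes. The standard errors rest on 1 estimate of the spread shared by all 9 libraries. In the same fit without ΔaslB replicate 2 they were 0.32 for acuE, 0.18 for icl1 and 0.18 for acuF. Fitted on the 6 libraries of MA234.1 and ΔaslA alone, the log2 fold changes had standard errors of 0.14, 0.11 and 0.11 and edgeR adjusted p-values of 1.30e-08 for acuE, 1.25e-08 for icl1 and 3.30e-08 for acuF, and that fit called 34.8% of genes lower. With 1 of those 6 libraries left out the highest adjusted p was 2.82e-06, 2.77e-06 and 4.47e-06, an alternative added after the data were seen. In the fit of all 9 libraries leaving out ΔaslA replicate 1, or replicate 2, ended all 3 calls, and leaving out replicate 3 ended those of icl1 and acuF (highest adjusted p 0.0532, 0.0587 and 0.0582), while the log2 fold changes stayed within 0.1 of their values.

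**Figure D1:**
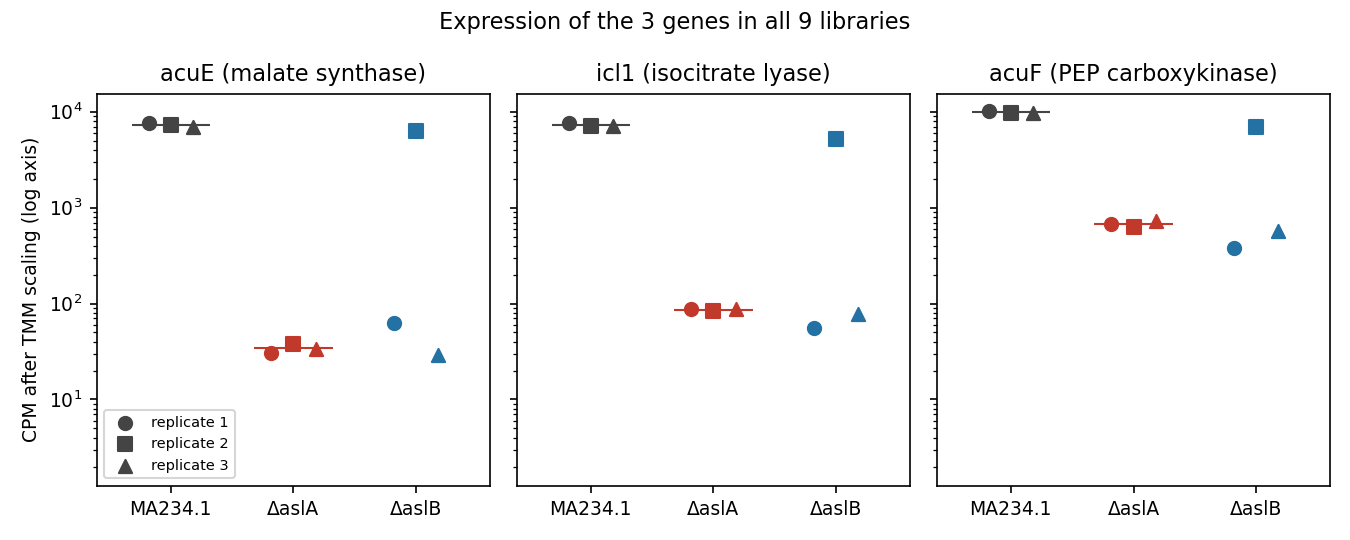
CPM after TMM scaling on a log axis for acuE, icl1 and acuF in the 9 libraries; circles, squares and triangles are replicates 1, 2 and 3, and horizontal lines are means of MA234.1 and ΔaslA. The ΔaslA libraries lie together below MA234.1 for each gene, and the ΔaslB libraries fall into replicate 2 near MA234.1 and replicates 1 and 3 near ΔaslA.

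The plot of CPM by library shows that the distance between MA234.1 and ΔaslA differs between the genes, so their levels were further apart in ΔaslA. In ΔaslA acuF stood at 309 ± 22.2 CPM per kb, icl1 at 46.7 ± 1.57 and acuE at 19.0 ± 2.08 (SD, n = 3 each), with no overlap between neighbours in that order. The gap between acuE and icl1, small in MA234.1 and of a direction that depended on the scale, was wider here, with acuE below. In the authors' deposited FPKM values the order was acuF, icl1, acuE in both strains.

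Ratios between the genes within a library do not depend on how libraries are scaled. The ratio of acuE to icl1 per kb was 1.01 to 1.04 in MA234.1 and 0.363, 0.473 and 0.390 in ΔaslA. The malate synthase transcript thus went from near the level of isocitrate lyase to well below it in every ΔaslA library. The difference was -1.33 on the log2 scale. The ratio of acuE to acuF went from 0.878 to 0.914 in MA234.1 to between 0.0550 and 0.0743 in ΔaslA, a difference of -3.87. The ratio of icl1 to acuF went from 0.865 to 0.899 to between 0.145 and 0.157, a difference of -2.54. For each of the 3 ratios the groups did not overlap, and the two-sided exact permutation p was 0.1, the smallest that 3 against 3 libraries allow, or 0.225 adjusted over 9 such tests.

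**Figure D2:**
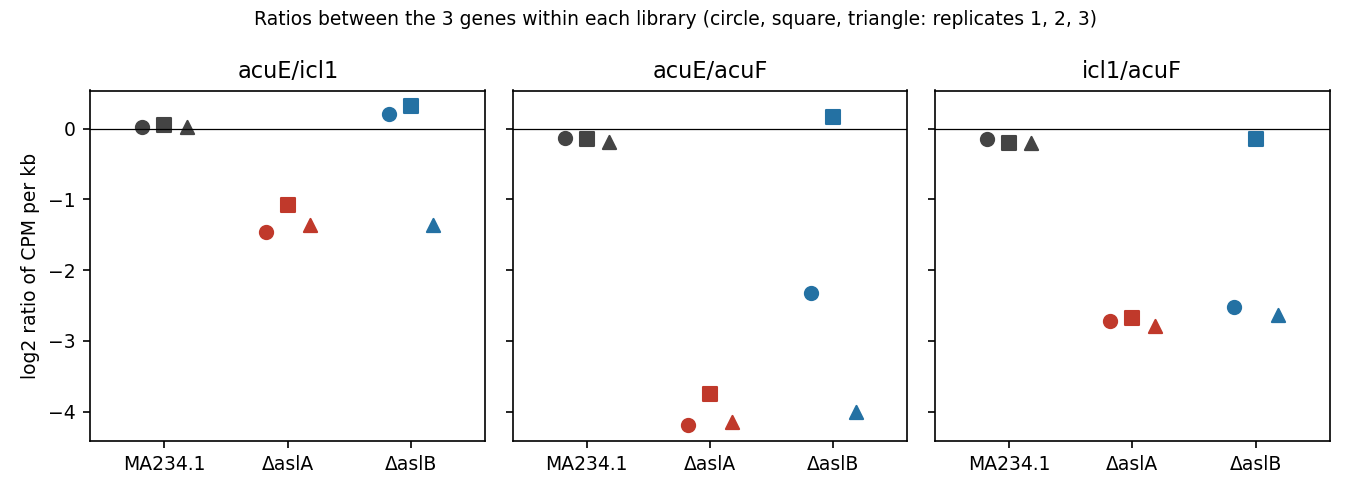
Log2 ratio of CPM per kb between pairs of the 3 genes within each library; circles, squares and triangles are replicates 1, 2 and 3, and the horizontal line marks equal levels. MA234.1 lies near 0 for each pair, ΔaslA between -1.08 and -4.18, and ΔaslB replicate 1 has an acuE to icl1 ratio of 0.20, above MA234.1, but low ratios to acuF.

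The rest of the pathway was followed through 7 lists of enzymes and regulators, matched by name to the deposited annotation and chosen with earlier results of these data known. Of 60 measured genes on these lists, 26 were called lower and 14 higher in ΔaslA, with a median log2 fold change of -0.31 against 0.00 over all genes tested. Over all genes 24.9% were called lower and 23.5% higher, so the share of rises on the lists was near that of all genes. With 1 library left out, 27 to 46 of the 60 were called. The lists did not move as 1 block. Entry of acetyl units and gluconeogenesis together held 14 of the 26 falls, while opposing or competing steps, such as those that oxidise sugars or make acetyl-CoA from citrate, held 10 of the 14 rises.

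Of 6 genes for the entry of acetyl units and for carriers, 5 fell and none rose (median -3.92). facA, the acetyl-CoA synthetase gene that activates acetate, went from 4438 ± 57.1 to 192 ± 33.3 CPM (log2 fold change -4.53, edgeR adjusted p = 0.0092). YAT1 and CAT2 encode carnitine acetyltransferases, which load acetyl units onto carnitine for transport between compartments. YAT1 went from 1153 ± 21.4 to 24.2 ± 3.55 CPM and CAT2 from 459 ± 17.8 to 82.8 ± 14.3 CPM. CRC1, for the mitochondrial carnitine carrier, went from 357 ± 29.4 to 35.8 ± 6.63 CPM. SFC1, in yeast the carrier that brings succinate from the glyoxylate cycle into mitochondria in exchange for fumarate, went from 1185 ± 7.25 to 13.4 ± 0.738 CPM. Its log2 fold change of -6.47 (edgeR adjusted p = 0.0150) was close to the -6.40 of icl1, whose product makes succinate. The dicarboxylate carrier gene DIC1 did not pass the test, at 34.1 ± 2.06 against 35.4 ± 6.72 CPM.

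The glyoxylate cycle also needs citrate synthase, aconitase and malate dehydrogenase, which it shares with the citric acid cycle. Of 10 measured genes 3 fell and 1 rose (median -0.65), with 1 lower without ΔaslA replicate 1 or 3 and 2 higher without ΔaslB replicate 2. The aconitase gene acoA (ATCC64974_98340), the most abundant of this list, fell from 5590 ± 55.9 to 1790 ± 243 CPM, and the weakly expressed aconitase gene ACO1 (ATCC64974_68640) from 4.22 ± 0.588 to 1.22 ± 0.275 CPM. A further aconitase gene, acoB (ATCC64974_9890), rose from 41.4 ± 3.31 to 341 ± 35.8 CPM. The malate dehydrogenase gene MDH1 (ATCC64974_32750), matched to a cytoplasmic enzyme, fell from 2278 ± 16.3 to 1047 ± 241 CPM (log2 fold change -1.12, edgeR adjusted p = 0.0109). The gene matched to the mitochondrial enzyme (ATCC64974_44760) stood at 1162 ± 59.2 against 1896 ± 563 CPM, above MA234.1 in all 3 libraries but not called (0.71, edgeR adjusted p = 0.0826). The citrate synthase gene cit-1 was not called either, at 2370 ± 109 against 1828 ± 85.5 CPM, with all ΔaslA libraries below MA234.1. The fit of the 6 libraries of these strains called 4 lower and 3 higher of 9 genes on this list. Among them were cit-1, lower (edgeR adjusted p = 0.00534), and ATCC64974_44760, higher (edgeR adjusted p = 0.0109).

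Beyond acuF, 9 of 18 measured genes for gluconeogenesis fell and 2 rose (median -0.47). The rises numbered 0 without any 1 of the MA234.1 libraries, 1 without any 1 of the ΔaslA libraries and 4 without ΔaslB replicate 2. FBP1, for fructose-1,6-bisphosphatase, the other enzyme that runs only in the direction of sugar synthesis, fell from 2438 ± 89.4 to 452 ± 85.9 CPM (log2 fold change -2.43, edgeR adjusted p = 0.0115). Pyruvate carboxylase makes oxaloacetate, the substrate of the acuF enzyme. Its gene pyc fell from 3770 ± 103 to 790 ± 194 CPM, and a further carboxylase gene, Pc (ATCC64974_30470), from 71.3 ± 5.09 to 3.91 ± 1.19 CPM. Of the malic enzyme genes, MAE1 rose from 79.4 ± 2.25 to 142 ± 24.2 CPM, and malA stood at 215 ± 11.3 against 236 ± 19.4 CPM.

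At the reversible steps shared with glycolysis, 6 genes fell and 1 rose. The abundant aldolase gene fbaA fell from 2810 ± 35.2 to 1727 ± 49.2 CPM (log2 fold change -0.70, edgeR adjusted p = 0.0448), and 2 minor aldolase genes fell from 109 ± 8.29 to 2.71 ± 1.57 CPM (ATCC64974_3760) and from 27.6 ± 1.76 to 0.124 ± 0.153 CPM (ATCC64974_42530, on 5 counts over the ΔaslA libraries). The minor triosephosphate isomerase gene ATCC64974_61280 fell from 161 ± 9.20 to 19.7 ± 2.52 CPM, while tpiA stood at 851 ± 41.7 against 805 ± 34.7 CPM. The minor glyceraldehyde-3-phosphate dehydrogenase gene gap1 (ATCC64974_36140) fell from 55.1 ± 3.57 to 5.04 ± 1.04 CPM, while gpdA stood at 6911 ± 87.5 against 5871 ± 1311 CPM and was not called. Of 2 genes matched to a phosphoglycerate mutase family protein, ATCC64974_104300 fell from 35.2 ± 2.75 to 9.57 ± 1.20 CPM and ATCC64974_46950 rose from 15.0 ± 1.97 to 32.7 ± 13.4 CPM. The genes of enolase (enoA), phosphoglycerate kinase (pgkA), phosphoglycerate mutase (ipgm-1) and glucose-6-phosphate isomerase (pgiA) did not pass the test. For ipgm-1 (log2 fold change 0.68, edgeR adjusted p = 0.0858) and pgiA (0.50, 0.197) all ΔaslA libraries lay above MA234.1, and both were called higher in the fit of the 6 libraries of these strains (edgeR adjusted p = 0.000153 and 0.00203).

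Of 17 measured genes for opposing or competing steps, 10 rose and 4 fell (median 1.22), with 6 higher without MA234.1 replicate 2 or 3. The largest rise was that of ACL1, a subunit of ATP-citrate synthase, which makes cytosolic acetyl-CoA from citrate, from 16.9 ± 0.591 to 863 ± 99.0 CPM. The largest fall was that of a hexokinase family gene, hxkA (ATCC64974_23890), from 60.6 ± 1.32 to 10.4 ± 1.79 CPM. Other genes of this family went both ways, and are named after their values were seen. ATCC64974_51280, also hxkA, rose from 77.7 ± 4.71 to 303 ± 21.4 CPM. The glucokinase gene glkA rose from 146 ± 8.32 to 503 ± 61.2 CPM, while the hxkA genes ATCC64974_28210 and ATCC64974_72740 fell. Isocitrate dehydrogenases compete with isocitrate lyase for isocitrate, and their genes are named here after their values were seen. icdA, of the NADP-dependent enzyme, fell from 3166 ± 48.5 to 563 ± 13.8 CPM, and IDH1 and idh2, of the NAD-dependent enzyme, rose from 488 ± 13.7 to 1044 ± 245 and from 276 ± 13.8 to 746 ± 55.0 CPM.

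The methylcitrate cycle handles propionyl-CoA through reactions that mirror the glyoxylate cycle, and 3 of its 4 measured genes fell (median -3.25). The 2-methylcitrate synthase gene mcsA went from 2838 ± 242 to 52.6 ± 5.54 CPM, the 2-methylcitrate dehydratase gene PDH1 (ATCC64974_31270) from 2646 ± 49.2 to 206 ± 58.7 CPM, and the methylisocitrate lyase gene mclA from 1704 ± 94.3 to 242 ± 49.3 CPM. mclA is also 1 of the 6 further genes of the isocitrate lyase protein family. The other 5 were matched to a bacterial carboxyphosphonate mutase, and 1 of them, ATCC64974_63780, went from 1539 ± 63.6 to 1.99 ± 1.52 CPM (log2 fold change -9.57, edgeR adjusted p = 0.0099), a deeper fall than that of icl1. ATCC64974_30360 fell by 1.54 on the log2 scale, ATCC64974_26850 and ATCC64974_49180 were not called at 0.02 and 0.39, and 1 gene was too low to test.

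Of 6 regulators looked for by name, acuK and creA were matched, and both fell with all 9 libraries. With any 1 of the MA234.1 libraries or ΔaslA replicate 2 left out 1 of them was called, and without ΔaslA replicate 1 or 3 neither. acuK, an activator of gluconeogenic genes in A. nidulans, went from 158 ± 5.28 to 58.8 ± 11.4 CPM (log2 fold change -1.43, edgeR adjusted p = 0.0158). creA, the repressor through which glucose turns off other carbon pathways, went from 307 ± 9.70 to 131 ± 39.5 CPM (-1.22, edgeR adjusted p = 0.0442). Of 3 genes for the GID ubiquitin ligase, which in yeast marks gluconeogenic enzymes for degradation when glucose returns, 1 rose slightly, from 203 ± 17.2 to 284 ± 5.67 CPM (ATCC64974_94100), and Gid4 and fyv10 were not called. The GID call was lost with any 1 of the MA234.1 or ΔaslA libraries left out. Of 3 genes added by their annotation, ERT1, matched to a gluconeogenesis activator, fell from 12.7 ± 1.61 to 4.02 ± 0.399 CPM and the acetate permease gene acpA (ATCC64974_25130) from 54.1 ± 4.61 to 3.00 ± 0.537 CPM, while a further permease gene (ATCC64974_49410) stood at 387 ± 12.0 against 370 ± 91.2 CPM.

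**Figure D3:**
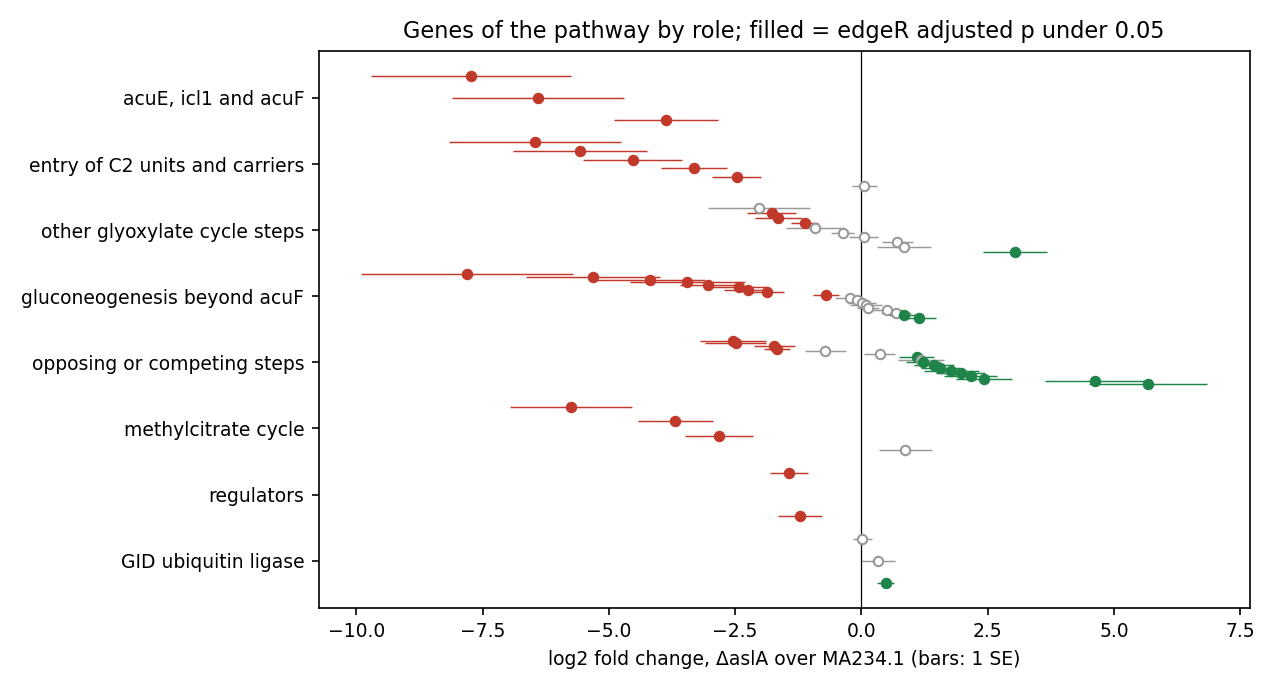
Log2 fold change of ΔaslA over MA234.1 for acuE, icl1 and acuF (top to bottom) and the measured genes of the 7 lists by role, 3 libraries per strain; filled points have an edgeR adjusted p under 0.05, open points do not, red is lower, green is higher, and bars are 1 SE. acuE at -7.73 and icl1 at -6.40 stand with the largest falls, while the opposing or competing steps lie mostly to the right, up to 5.67 for ACL1.

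The plot of fold changes by role places acuE and icl1 at the far left with the aldolase gene ATCC64974_42530, SFC1, mcsA and YAT1, and acuF nearer to facA and FBP1. It also shows that the gluconeogenic genes that were not called lie between -0.24 (gpdA) and 0.68 (ipgm-1), with pgiA at 0.50.

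The second comparison asked the same of the deletion of aslB, with the same MA234.1 libraries as the first, so the comparisons are not independent. The ΔaslB libraries did not give 1 value per gene. In replicates 1 and 3 the 3 genes lay far below MA234.1, with acuE in replicate 1 above and the other values near or below the ΔaslA libraries, and in the library labelled ΔaslB replicate 2 they were nearly as high as in MA234.1. All 3 genes were nonetheless below every MA234.1 library in all 3 ΔaslB libraries.

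In ΔaslB replicates 1 to 3 acuE had 62.3, 6302 and 29.2 CPM, on 865, 103939 and 351 counts. icl1 stood at 55.8, 5217 and 77.4 CPM, on 775, 86049 and 932 counts. acuF stood at 378, 6851 and 568 CPM, on 5252, 113007 and 6832 counts. Replicate 2 is thus the high library for all 3 genes, and the order of replicates 1 and 3 is not the same for each: acuE was higher in replicate 1, icl1 and acuF in replicate 3. Together the genes took 0.0522% of counts in replicate 1 (95% exact binomial interval 0.0510 to 0.0535), 2.01% in replicate 2 (2.00 to 2.02) and 0.0664% in replicate 3 (0.0649 to 0.0678). These intervals cover counting error only.

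With all 9 libraries no member passed the test, and edgeR called 0% of all genes. The log2 fold changes were -1.77 for acuE (SE 1.52; edgeR adjusted p = 0.421), -2.04 for icl1 (SE 1.39; 0.321) and -1.92 for acuF (SE 0.95; 0.197). At an unadjusted p under 0.05 edgeR had 0 of the 3 genes and 2926 of all genes. By limma-voom 3 of the 3 genes and 3305 of all genes were under it, with 0 called after adjustment. DESeq2, which gave the 3 genes no p, called 1807 of the 9197 genes to which it gave one. The log2 fold changes of limma-voom were larger, at -5.12 for acuE, -4.77 for icl1 and -3.16 for acuF. Being below MA234.1 in every library was shared by 22.8% of all genes tested. Without ΔaslB replicate 2 all 3 genes were called lower, by -7.31 (SE 0.38; edgeR adjusted p = 1.29e-06), -6.78 (SE 0.22; 2.16e-07) and -4.38 (SE 0.22; 1.05e-06), in a fit that called 26.2% of genes lower.

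The position of each ΔaslB library between the strains can be given per gene on a log2 scale that runs from 0 at the MA234.1 mean to 1 at the ΔaslA mean. acuE lay at 0.89, 0.03 and 1.03 in replicates 1 to 3, icl1 at 1.10, 0.08 and 1.02, and acuF at 1.22, 0.14 and 1.07. In replicate 3 all 3 genes were thus at or just past the ΔaslA level, and in replicate 1 icl1 and acuF were further past it while acuE fell short. Replicate 2 was near MA234.1 but not at it, by -0.21 for acuE, -0.49 for icl1 and -0.53 for acuF on the log2 scale, where the SD between MA234.1 libraries was 0.06, 0.06 and 0.03.

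The pathway genes split in the same way between the libraries. Of the 40 listed genes called in ΔaslA, 38 stood nearer to MA234.1 than to ΔaslA in the library labelled ΔaslB replicate 2, while replicate 1 had 3 such genes and replicate 3 had 1. Over all 4638 genes called in ΔaslA the share nearer to MA234.1 was 90.5% in replicate 2, 18.4% in replicate 1 and 6.55% in replicate 3. YAT1 stood at 42.4, 946 and 25.3 CPM, SFC1 at 10.5, 868 and 10.5 CPM, and FBP1 at 306, 1644 and 452 CPM in replicates 1 to 3. With all libraries 0 of the 60 listed genes were called by edgeR. At an unadjusted p under 0.05 edgeR had 23 of the 60 and 2926 of all 9568 genes. DESeq2, which gave a p to 53 of the 60 and to 9197 of all genes, called 17 and 1807 of them. Without replicate 2, 28 were called lower and 16 higher, in a fit that called 5093 of 9668 genes, 26.2% of the 9668 being called lower. The listed calls held 5 of the 6 genes for entry of acetyl units, all lower, and 9 of the 18 gluconeogenic genes lower and 3 higher.

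**Figure D4:**
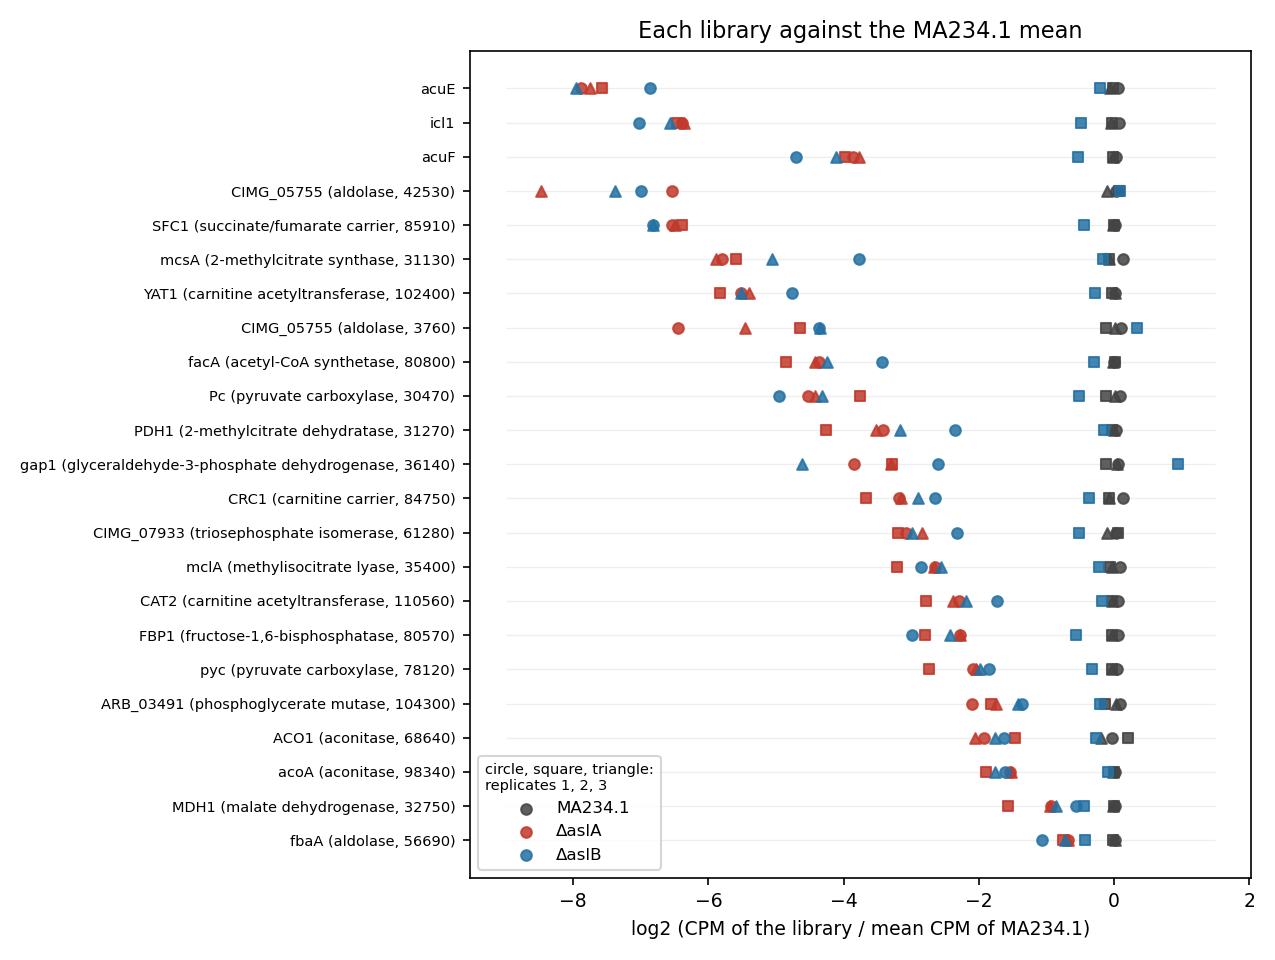
Log2 ratio of each library's CPM to the MA234.1 mean for acuE, icl1, acuF and the genes of 4 lists (acetyl entry, glyoxylate cycle, gluconeogenesis, methylcitrate cycle) that fell in ΔaslA; grey is MA234.1, red ΔaslA, blue ΔaslB, and circles, squares and triangles are replicates 1, 2 and 3. ΔaslB replicate 2, the blue squares, lies near the MA234.1 points in most rows, acuE at -0.21 among them, while blue circles and triangles lie near the red points; 1 library at 0 (aldolase ATCC64974_42530, ΔaslA replicate 2) is not drawn.

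The plot of single libraries against the MA234.1 mean shows this split gene by gene. The ratios within a library split differently. In ΔaslB replicate 3 the ratios per kb were 0.387 for acuE to icl1, 0.0626 for acuE to acuF and 0.162 for icl1 to acuF, each inside the range of ΔaslA or within 0.01 of it. In replicate 1 icl1 to acuF was also low, at 0.175, but acuE to icl1 was 1.15, above every MA234.1 library, although both genes were low there. In replicate 2 the ratios were 1.24, 1.12 and 0.902, each above the highest MA234.1 library. Between ΔaslB and MA234.1 the exact permutation p was 1, 0.4 and 0.4 for the 3 ratios (adjusted 1, 0.45 and 0.45), and the groups overlapped. The mean log2 differences were -0.32, -1.90 and -1.58 with all libraries. Without replicate 2 the difference was -0.62 for acuE to icl1 and -2.38 for icl1 to acuF, and that of acuE to acuF was -3.003.

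The third comparison set the deletion strains against each other. None of the 3 genes passed the test with all 9 libraries, and edgeR called 0% of genes. The log2 fold changes of ΔaslA over ΔaslB were -5.96 for acuE (SE 1.83; edgeR adjusted p = 0.179), -4.37 for icl1 (SE 1.54; 0.210) and -1.94 for acuF (SE 0.95; 0.342), with overlapping libraries. At an unadjusted p under 0.05 edgeR had 2 of the 3 genes, acuE and icl1, and 1633 of all genes. By limma-voom 0 of the 3 genes and 1121 of all genes were under it, with 0 of all genes called after adjustment. DESeq2 called 553 of the 9197 genes to which it gave a p. Without ΔaslB replicate 2 the values were -0.42 for acuE (edgeR adjusted p = 0.512), 0.38 for icl1 (0.300) and 0.52 for acuF (0.205), so that the direction turned for icl1 and acuF. Without ΔaslB replicate 3 acuE and icl1 were called lower in ΔaslA (edgeR adjusted p = 0.0279 and 0.0485), but not in the fit of only the ΔaslA and ΔaslB libraries without it (0.134 and 0.177).

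The authors' deposited table, which holds 1 FPKM value per strain, gave acuE 5500, 25.4 and 1672 FPKM in MA234.1, ΔaslA and ΔaslB. In the same authors' deposited table icl1 had 5566, 63.8 and 1431 FPKM and acuF 7475, 496 and 1996 FPKM. Its log2 ratios of MA234.1 over ΔaslA were 7.70, 6.42 and 3.91 for acuE, icl1 and acuF, each with q = 0.000295 and marked as differentially expressed in the authors' deposited table. For MA234.1 over ΔaslB the authors' deposited table had 1.72 (q = 0.143), 1.96 (q = 0.0108) and 1.90 (q = 0.0108), none marked. The mark did not follow q alone, since in the authors' deposited table SFC1 had 1.99 with q = 0.00103 in this comparison and was not marked. Among the genes looked up there, every marked log2 ratio was at least 2.00 in size, such as acuF with q = 0.00942 for ΔaslB over ΔaslA. The edgeR calls had no limit on fold change. Thus icl1 and acuF had q under 0.05 there, while edgeR called neither with all 9 libraries. For ΔaslB over ΔaslA the authors' deposited table had 5.99, 4.47 and 2.00, all marked, which differs from the edgeR result, where none was called.

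Genes with profiles most like each member were found by the root mean square difference of centred log2 CPM over the 9 libraries, a description of these libraries with no test. The gene most like icl1 was SFC1, the succinate and fumarate carrier, at 0.13 log2 units, and next came fahA (fumarylacetoacetase, of tyrosine breakdown) at 0.27, amdS (acetamidase, which releases acetate from acetamide) at 0.37, and genes matched to the hydroxylase TRI11 (ATCC64974_34770) and to cefD1 (ATCC64974_31100) at 0.41 each. amdS went from 232 ± 7.19 CPM in MA234.1 to 1.57 ± 0.237 in ΔaslA, and fahA from 2120 ± 47.1 to 19.6 ± 3.35. The genes most like acuE were a gene with a domain of unknown function (ATCC64974_9510) at 0.32, which had 0 counts in every ΔaslA library, URC4 (in yeast named for uracil breakdown) at 0.33, a lipase gene (LIP, ATCC64974_72990) at 0.36, an alcohol dehydrogenase gene (ADH1, ATCC64974_98950) at 0.37 and the arabinanase gene abnA at 0.40. The lipase gene was the most abundant of these, at 2126 ± 131 CPM in MA234.1 and 7.73 ± 1.17 in ΔaslA. The genes most like acuF were cyn1 (cyanate hydratase) and ATCC64974_28010 at 0.18 each, ATCC64974_71830 at 0.21, ATCC64974_35200 and a copper amine oxidase gene (AO-I) at 0.26 each.

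None of the 3 members was among the 5 most alike of another. icl1 was place 30 of 9567 for acuE at 0.72 log2 units and acuE place 55 for icl1. acuF was place 231 for icl1 at 1.24 and place 335 for acuE at 1.86, whereas from acuF icl1 was place 1229 and acuE place 3782. The median over all genes was 3.76 from acuE, 3.21 from icl1 and 2.01 from acuF. With a prior count of 0.5 in place of 2, 2 of 5 most alike genes were shared for acuE, 2 for icl1 and 5 for acuF, so the order for acuE and icl1 depends on how low counts are treated. Without ΔaslB replicate 2, 4 of the 5 were shared for acuE, 3 for icl1 and 4 for acuF, SFC1 was again the gene most like icl1 at 0.14, and icl1 was place 27 for acuE.

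The genes beside the members were also counted, 5 on each side. Of 29 neighbours tested, 13 fell and 3 rose in ΔaslA (median -0.83 against 0.00 over all genes, of which 24.9% were called lower and 23.5% higher), with 6 lower and 1 higher of 9 around acuE, 3 lower and 2 higher of 10 around icl1, and 4 lower and 0 higher of 10 around acuF. The lowest fold change around acuE was that of HNM1, a choline transporter gene 9780 bases away, at -7.03, and around acuF that of mic-33, matched to a putative mitochondrial carrier of 2-oxoglutarate and malate, 4608 bases away. mic-33 went from 168 to 1.36 CPM (log2 fold change -6.93, edgeR adjusted p = 0.0095), deeper than acuF itself at -3.86. Around icl1 no neighbour was below -1.56. These 2 genes, and PEX11 (a peroxisomal membrane protein, 8706 bases from acuF), which fell from 443 to 72.9 CPM, are named after their values were seen.

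**Figure D5:**
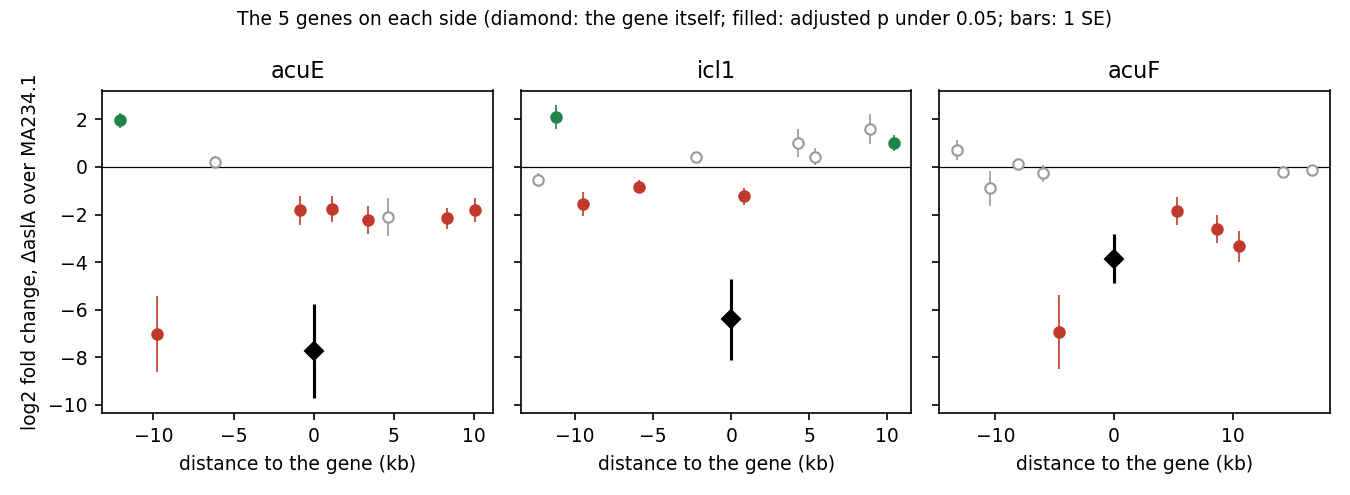
Log2 fold change of ΔaslA over MA234.1 for the 5 annotated genes on each side of acuE, icl1 and acuF against distance from the gene in kb; the diamond is the gene itself, filled points have an edgeR adjusted p under 0.05, open points do not, red is lower, green is higher, and bars are 1 SE. mic-33 at -6.93 lies beside acuF and HNM1 at -7.03 near acuE, and the neighbours of icl1 lie between -1.56 and 2.09.

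The plot of neighbours by distance shows that acuE and icl1 lie below all of their tested neighbours, and acuF below all but mic-33.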

How the data were processed

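The authors deposited whole-number read counts per gene for 9 libraries (paired reads of 50 bp from a stranded poly(A) kit, per the labels' protocols). They also deposited a table with FPKM values per strain and log2 ratios and q-values per pair of strains, as the file headers show. HISAT2 2.2.1, Cuffdiff, Subread and featureCounts are named in the submitters' processing notes. For the build, strand setting and reads with several matches, the sources used here give nothing. From the deposited counts, CPM were computed after TMM scaling, and groups were compared with edgeR 4.0.16 (R 4.3.3; filterByExpr, robust quasi-likelihood test, all 9 libraries, Benjamini-Hochberg over 9568 genes, threshold 0.05); SE is the log2 fold change over the square root of F. Deposited log2 ratios and FPKM were only copied. Ratios between genes used exact permutation tests over libraries. DESeq2 1.42.0 and limma-voom 3.58.1 were alternatives. The edgeR step was tested on simulated counts.

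Members and lists were chosen with earlier results of these data known. Named were the 3 members, called genes of the acetyl entry, glyoxylate, gluconeogenesis, methylcitrate and regulator lists, the largest change each way in the other lists, the 5 genes most alike and protein family relatives; others are marked as named later. Totals of 11321882 to 19110786 counts set the counting error; the chi-square per degree of freedom between libraries of 1 strain ran from 2.32 to 591, so in the closest pairs counting error is a sizeable part of the spread. Sequences of these genes were not used here.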

Additional observations from a re-analysis of the deposited data

How the results depend on the processing

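Over 17 alternatives per comparison fixed for the model fits (other scaling, filters and tools, subsets of libraries and each library left out), log2 fold changes of acuE, icl1 and acuF in ΔaslA against MA234.1 ran from -7.81 to -7.66, -6.45 to -6.34 and -3.91 to -3.80. Between 0 and 3 of them were called with 1 library left out, and 3008 to 5893 of all genes (4638 with all). In ΔaslB against MA234.1 they ran from -7.31 to -1.19, -6.78 to -1.47 and -4.38 to -1.41. There, leaving out 1 library gave 0 to 3 members, 0 to 5093 of all genes and 0 to 44 of 60 pathway genes called; all 3 members were called only without ΔaslB replicate 2, also in the fit of 6 libraries, a setting added after the data were seen. All-gene calls there were 644 with library totals alone and 1807 with DESeq2, and pathway calls 3 and 17. In ΔaslA against ΔaslB, leaving out 1 library gave 0 to 2 members, 0 to 1245 genes and 0 to 13 pathway genes; DESeq2 gave 553 and 3. With 1 library left out icl1 ran from -4.93 to 0.38 there and acuF from -2.45 to 0.52, the sign turning without ΔaslB replicate 2 (0.37 and 0.52 in the 6-library fit), and the log2 ratio of acuE to icl1 of ΔaslB over MA234.1 from -0.62 to 0.22, turning without ΔaslB replicate 3. The cause was not tested. DESeq2 gave the members no p, and it gave a p to 53 of the 60 pathway genes and to 9197 of all 9568 genes tested.

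Same-numbered libraries did not deviate together (correlations -0.0582 to 0.0383), so the numbers were not taken as pairs. With a replicate block the 3 members stayed called in ΔaslA (edgeR adjusted p = 0.0197 for acuE, 0.0221 for icl1 and 0.0217 for acuF), as were 4148 genes; in ΔaslB against MA234.1 their log2 fold changes were then -4.27, -4.06 and -2.80, none called.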
